A study of Mus musculus with 6 samples.

Results

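Most of the genes described here build and anchor the surface epithelium: classical cadherins and catenins, nectins, desmosome and cornified envelope proteins, tight junction proteins, keratins, and the laminins, integrins and linkers that attach epithelial cells to the basement membrane. The list also held the surface proteins Cd44 and Cd9 and the splicing regulators Esrp1 and Esrp2. Together these were 48 named genes of the 21523 protein-coding genes used, and 48 of 48 were found in the RefSeq gene table of GRCm38.p6. The measurement was the position of peaks bound by SP8, a DNA-binding protein related to SP1 and the KLF factors that limb bud ectoderm expresses. A gene was counted when the centre of a peak lay inside it or within 10 kb, and separately within 100 kb, of its start or end.

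Mouse forelimb ectoderm at E10.5, in a C57BL6J background, was profiled by chromatin immunoprecipitation and sequencing. The 6 libraries were 2 anti-FLAG immunoprecipitations and 2 inputs from homozygous Sp8-FLAG knock-in embryos (genotype Sp8FL KI), and 1 H3K4me2 immunoprecipitation and 1 input from wild-type (WT) embryos. Each replicate pooled the ectoderm of 50 forelimb buds, peeled after trypsin, and no drug or other treatment separated the groups. The epitope tag was thus present in every SP8 library, inputs included. All values below come from 1 list of 1451 peaks whose name gives SP8 replicate 1, a q of 0.1 and a fold change of 3. The list gives a position and a running number for each peak, with no height, fold, q or read count, so sequencing depth was unknown and no difference below carries a replicate error or a test. The second SP8 replicate, the inputs and H3K4me2 were not analysed here. A peak list holds no expression values, so the labelled tissue could not be checked against the levels of its markers.

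Epithelial cells hold together through 3 kinds of lateral junction. Adherens junctions join E- and P-cadherin to the actin cytoskeleton through catenins, desmosomes join desmosomal cadherins to keratin filaments through plakoglobin, plakophilins and desmoplakin, and tight junctions seal the space between cells through claudins and occludin. Hemidesmosomes and integrins hold the basal cells on laminin. In the limb bud this sheet covers the mesenchyme and forms the apical ectodermal ridge, the signalling centre that SP8 is known to be needed for.

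Few of these genes had SP8 close by. A peak lay inside or within 10 kb of 4 of the 48 genes (8.33%, 95% Wilson interval 3.29 to 19.6, counting error only), namely Krt14, Itgb1, Tjp1 and Ctnna1. Of all protein-coding genes, 6.48% met the same rule, and of all genes in the table, noncoding ones included, 4.16%, so the share of the adhesion genes was near the background. Within 100 kb there were 17 of 48 (35.4%, 23.4 to 49.6), against 20.1% of protein-coding genes and 16.4% of all genes. The remaining 31 genes, among them Epcam, Krt5, Krt8, Krt18, Dsp, Cldn6 and both Esrp genes, had no peak within 100 kb, and 6 of them had none within 1000 kb. The median distance to the nearest peak was 205 kb over the 48 genes (order-statistic interval 103 to 406 kb) and 481 kb over all protein-coding genes. The interval treats the 48 genes as independent, although some share their nearest peak.

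The promoters of 3 of the 4 genes with a close peak, and of 3 genes without one, are shown first. SP and KLF proteins are known to bind GC-rich boxes, and the boxes in these promoters are described below. Each is the 250 bases before a transcript start, 5′ to 3′ on the gene's strand, from the RefSeq promoter table of GRCm38.p6. Capitals mark GC boxes (GGGCGG) and CACC boxes (CCACCC) on either strand. The promoter table held no entry for Ctnna1.
Itgb1, chr8:128685404-128685653, plus strand: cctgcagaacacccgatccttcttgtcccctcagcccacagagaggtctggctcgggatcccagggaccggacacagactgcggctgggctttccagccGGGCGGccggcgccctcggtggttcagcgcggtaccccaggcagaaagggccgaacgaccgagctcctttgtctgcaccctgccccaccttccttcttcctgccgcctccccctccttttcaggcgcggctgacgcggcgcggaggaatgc
Tjp1, chr7:65371245-65371494, minus strand: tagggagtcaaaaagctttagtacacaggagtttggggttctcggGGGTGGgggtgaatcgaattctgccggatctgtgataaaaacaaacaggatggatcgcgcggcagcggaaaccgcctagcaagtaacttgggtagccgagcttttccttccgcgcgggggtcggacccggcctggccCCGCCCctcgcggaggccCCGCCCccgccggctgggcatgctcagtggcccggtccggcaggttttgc
Krt14, chr11:100206031-100206280, minus strand: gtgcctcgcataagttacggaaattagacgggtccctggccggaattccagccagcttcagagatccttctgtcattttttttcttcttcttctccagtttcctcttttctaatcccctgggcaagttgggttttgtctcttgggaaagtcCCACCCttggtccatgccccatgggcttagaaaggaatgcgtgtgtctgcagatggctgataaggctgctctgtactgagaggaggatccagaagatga
Krt5, chr15:101712906-101713155, minus strand: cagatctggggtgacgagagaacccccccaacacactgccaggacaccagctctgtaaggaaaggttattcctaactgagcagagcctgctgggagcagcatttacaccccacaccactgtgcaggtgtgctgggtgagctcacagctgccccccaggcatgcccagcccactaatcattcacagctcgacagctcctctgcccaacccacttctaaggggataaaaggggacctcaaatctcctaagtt
Dsp, chr13:38151044-38151293, plus strand: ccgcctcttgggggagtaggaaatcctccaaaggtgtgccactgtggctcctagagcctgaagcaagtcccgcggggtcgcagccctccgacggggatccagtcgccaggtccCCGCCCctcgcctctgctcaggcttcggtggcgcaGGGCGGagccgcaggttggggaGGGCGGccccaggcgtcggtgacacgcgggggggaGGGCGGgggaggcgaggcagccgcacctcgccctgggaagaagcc
Epcam, chr17:87635729-87635978, plus strand: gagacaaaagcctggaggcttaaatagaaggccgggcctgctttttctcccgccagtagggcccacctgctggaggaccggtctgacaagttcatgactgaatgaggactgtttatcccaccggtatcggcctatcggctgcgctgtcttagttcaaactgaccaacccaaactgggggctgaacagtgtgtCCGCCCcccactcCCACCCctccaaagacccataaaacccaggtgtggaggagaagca

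Itgb1 encodes the beta 1 integrin subunit, which pairs with many alpha subunits to bind matrix proteins, and its peak lay on the start of the gene. The gene spans chr8:128685654-128733579 and the peak chr8:128685638-128686646 (1008 bp wide, number 880 of 1451 in the list). The peak centre was 0.488 kb inside the gene from its start, and the peak took in the last 16 bases of the upstream sequence printed above. That sequence held 1 GC box, 21 CG dinucleotides and 68.0% G and C. Of the 1451 peaks, 37 were wider.

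Tjp1 encodes ZO-1, the scaffold that ties claudins and occludin to actin. Its peak, chr7:65370036-65371064 (1028 bp, number 1175), lay inside the gene (chr7:65296165-65527850), 157 kb from the outermost boundary on the start side. The RefSeq promoter table places a transcript start within the gene at position 65371244, and the peak centre was 0.694 kb downstream of that start. The sequence before this start held 2 GC boxes, 1 CACC box and 22 CG dinucleotides, with 63.2% G and C, and ended 181 bp from the peak. The Tjp1 and Itgb1 peaks were thus alike in width and in lying just inside a GC-rich start.

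Krt14 encodes the type I keratin of basal epidermal cells, whose partner is keratin 5. The peak chr11:100206437-100206724 was 287 bp wide and stood at number 211, earlier in the list than the peaks of Itgb1, Tjp1 and Ctnna1. It lay inside the gene (chr11:100203162-100207510), 0.929 kb from the boundary on the start side and 0.550 kb upstream of an internal start given by the promoter table. The sequence before that internal start, printed above, lies within the gene and held 0 GC boxes, 1 CACC box and 5 CG dinucleotides, with 49.6% G and C. Whether the peak covers an exon or an intron cannot be read from the tables used.

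Ctnna1 encodes alpha-catenin, the actin linker of the cadherin complex. Its peak was 373 bp wide (chromosome 18, 35118516 to 35118889, number 1188) and was centred 0.200 kb outside the gene (35118902 to 35254776). The centre also fell inside Gm46617, a predicted protein-coding gene that overlaps this boundary, so the peak is not assigned to Ctnna1 alone. In all, 4 of these 4 peaks were centred within 1 kb of a gene start or, for Ctnna1, whose strand the tables do not give, of a gene boundary. Among the 1111 protein-coding genes that had a peak within 10 kb and an entry in the promoter table, 523 (47.1%) had one within 1 kb of a start. By that rule, which leaves out Ctnna1, the count for the group was 3 of 3.

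**Figure D1:**
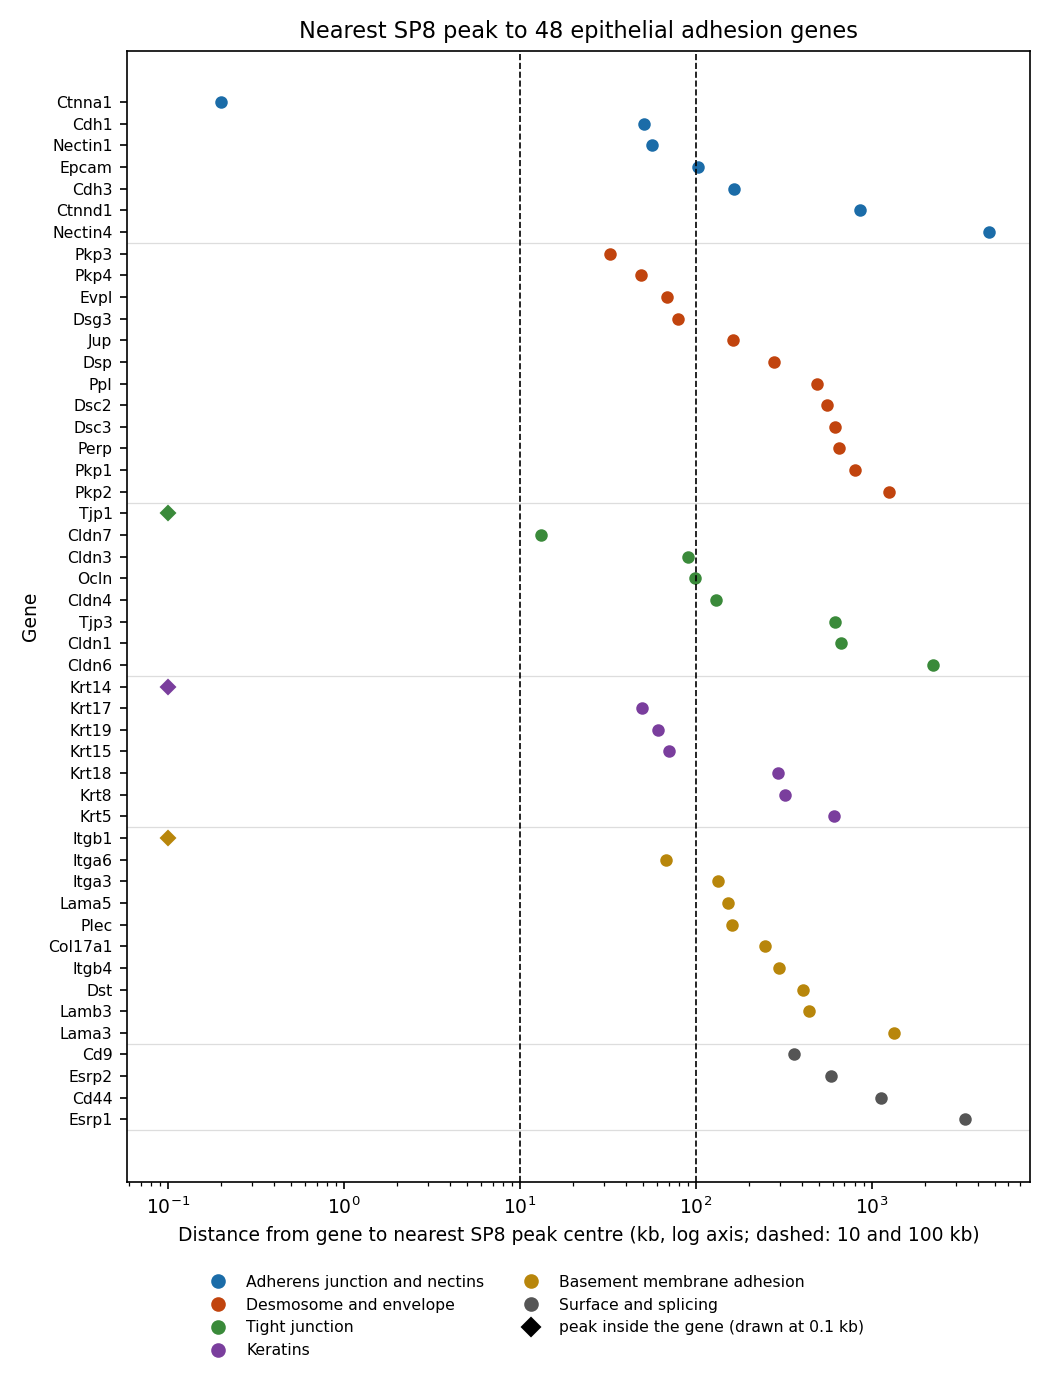
Distance in kb (log axis) from each of the 48 genes to the nearest SP8 peak centre, by role; diamonds drawn at 0.1 kb are the 3 genes with a peak inside them, and dashed lines stand at 10 and 100 kb. Only Ctnna1, Tjp1, Krt14 and Itgb1 lie left of 10 kb, the next gene is Cldn7 at 13.2 kb, and all 4 surface and splicing genes lie right of 100 kb.

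The windows cut the genes at different kinds of gap. Around 10 kb the nearest gene inside was Ctnna1 at 0.200 kb and the nearest outside was Cldn7 at 13.2 kb. Around 100 kb the genes were close together, with Ocln inside at 98.4 kb and Epcam outside at 103 kb. The count within 100 kb is therefore sensitive to the exact limit, whereas the count within 10 kb would be the same at 5 kb.

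The counts by role that follow are small. At the shares of all protein-coding genes, a role of 4 to 12 genes would hold 0.259 to 0.777 genes within 10 kb and 0.804 to 2.41 within 100 kb, so 0 or 1 gene within 10 kb is near the background for each role.

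Adherens junction genes and their relatives gave 1 of 7 genes within 10 kb (Ctnna1) and 3 of 7 within 100 kb. The background shares would give 0.453 and 1.41. Cdh1, the gene of E-cadherin, was 50.9 kb from a peak of 216 bp (number 1339) that lay inside Tango6. The neighbouring Cdh3, the gene of P-cadherin, was 164 kb from the same peak. Nectin1, an immunoglobulin-type adhesion receptor, was 56.6 kb from a peak of 797 bp (chr9:43863675-43864472, number 94), and no other protein-coding gene was nearer to that peak. For Ctnnd1, which encodes the cadherin-binding p120-catenin, the nearest peak was 863 kb away, in Itgav. Nectin4 was the most distant of the 48 genes at 4633 kb. Epcam, a surface glycoprotein of simple epithelia, had its nearest peak at 103 kb, where Calm2 was the closest protein-coding gene.

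Desmosome and envelope genes had 0 of 12 members within 10 kb and 4 of 12 within 100 kb, where the background shares would give 0.777 and 2.41, with a median distance of 385 kb. Pkp4, an armadillo-repeat protein of cell junctions, was 49.0 kb from peak number 6 of the list, at chr2:59403919-59404543 (624 bp). Pkp4 was the protein-coding gene nearest to that peak, which lay inside the noncoding gene Gm46743. Pkp3, the gene of plakophilin 3, was 32.7 kb from a peak of 210 bp (number 1417) whose nearest protein-coding gene was Ano9. Evpl, which encodes envoplakin, had a peak at 68.6 kb on the boundary of Exoc7 and another at 97.2 kb inside Foxj1. Desmoplakin, the main link from desmosomes to keratin, is encoded by Dsp, and Dsp was 278 kb from any peak. Jup (plakoglobin) was 162 kb away, Ppl (periplakin) 492 kb, Perp 650 kb, Pkp1 801 kb and Pkp2 1258 kb.

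The desmosomal cadherins stand in a row on chromosome 18. The 9 desmocollin and desmoglein genes cover 644 kb, from Dsc3 to Dsg2, and 0 peaks were centred inside that span, where the mean density of 0.563 peaks per Mb over the chromosomes used would give 0.362, so 0 is unremarkable. Just beyond its Dsg2 end lay 4 peaks within 8.87 kb (chromosome 18, 20619911 to 20628777), of 950, 330, 2039 and 778 bp. Of the 1451 peaks, 7 were wider than the one of 2039 bp, which had number 456. The other 3 had numbers 1347, 1382 and 1289. From this group the distance was 15.9 kb to Dsg2, which is not among the 48 genes, 35.8 kb to Ttr on the far side and 79.1 kb to Dsg3. Dsc2 and Dsc3, at the other end of the row, were 561 and 618 kb away. All 4 peaks lay inside the noncoding gene Gm16090.

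Tight junction genes had 1 of 8 members within 10 kb (Tjp1) and 4 of 8 within 100 kb, where the background shares would give 0.518 and 1.61. Cldn7, a claudin of epithelial sheets, had 3 peaks between 13.2 and 59.2 kb, of 199, 530 and 500 bp, but each lay inside another gene (Elp5, Phf23 and Dlg4). Cldn3 was 90.9 kb from a peak next to Vps37d, and its neighbour Cldn4 was 131 kb from the same peak. Ocln, the gene of occludin, was 98.4 kb from a peak at Rad17. Cldn1, a claudin needed for the epidermal barrier, was 666 kb from a peak inside Trp63, the regulator of stratified epithelium. Tjp3 (ZO-3) was 616 kb and Cldn6 was 2238 kb from a peak.

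Keratin genes gave 1 of 7 within 10 kb (Krt14) and 4 of 7 within 100 kb, but all 4 rest on the same peak. At the background shares there would be 0.453 and 1.41. Krt17, Krt19 and Krt15, type I keratins like Krt14, were 49.6, 60.7 and 70.6 kb from the Krt14 peak and had no other within 100 kb. In the whole type I row on chromosome 11, 27 keratin genes over 1037 kb, the Krt14 peak was the 1 peak centred inside, against 0.584 at the mean density. A second peak (number 1074) lay 2.34 kb beyond the far end, next to Krt222. The type II row on chromosome 15, 26 keratin genes over 684 kb, held 0 peaks, against 0.385 at the mean density, and the nearest was 294 kb beyond its Krt18 end, inside Pfdn5. That row includes Krt5 at 613 kb and Krt8 at 322 kb, while Krt18, the type I partner of Krt8, stands at its end. Of the basal pair, Krt14 thus had a peak and Krt5 had none within 100 kb, and neither gene of the simple-epithelium pair Krt8 and Krt18 had one.

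**Figure D2:**
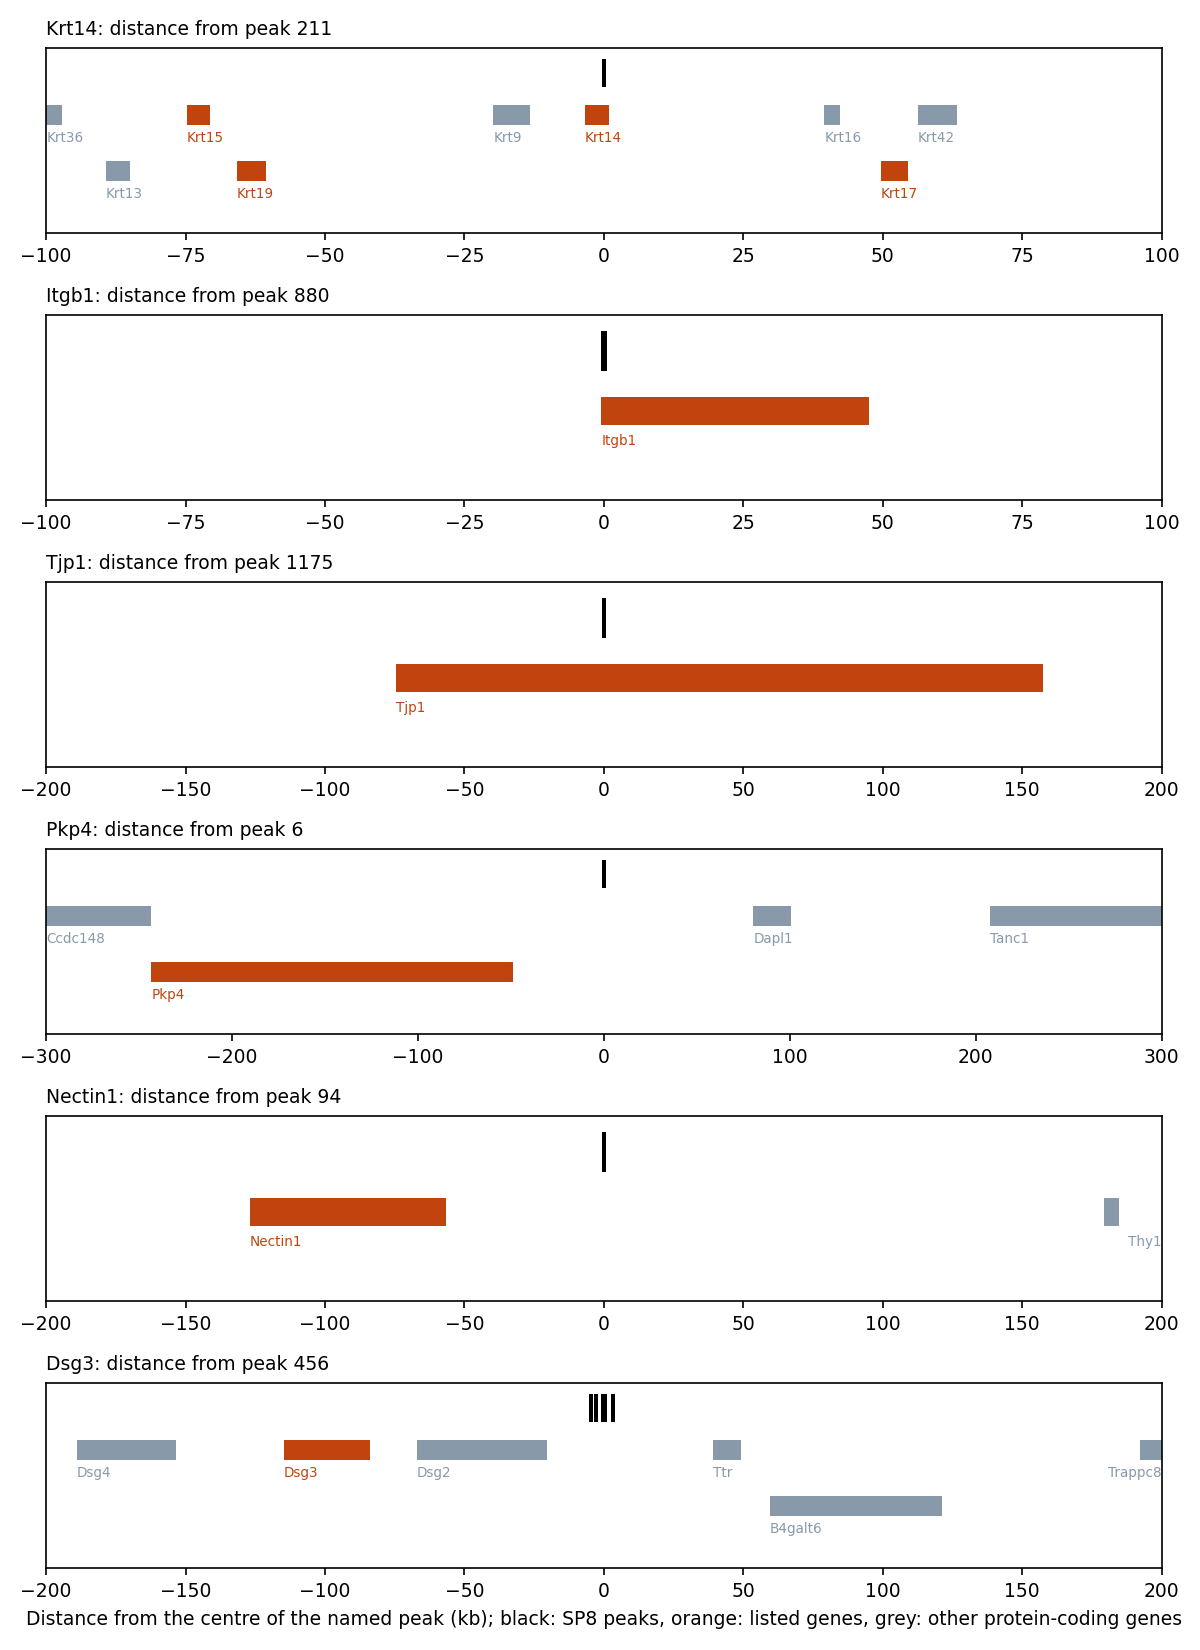
Maps of 6 loci in kb from the centre of the named peak (x axis); black marks are SP8 peaks, drawn wider than scale where they are narrow, orange bars are genes of the adhesion group and grey bars other protein-coding genes. Krt14, Itgb1 and Tjp1 contain their peak, while the peaks near Pkp4 (number 6), Nectin1 (number 94) and Dsg3 (4 peaks) lie between protein-coding genes.

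Basement membrane adhesion genes had 1 of 10 members within 10 kb (Itgb1) and 2 of 10 within 100 kb. With the background shares these would be 0.648 and 2.01, so both were near the background. Itga6, the alpha 6 integrin subunit of hemidesmosomes, was 67.6 kb from a peak of 230 bp (chr2:71719159-71719389, number 271). It was the nearest protein-coding gene, but the noncoding gene Platr26 was 0.143 kb from that peak. Its hemidesmosome partner Itgb4 was 298 kb from a peak, and Itga3, a laminin-binding partner of Itgb1, was 134 kb away. The laminin chain genes Lama5, Lamb3 and Lama3 were at 152, 439 and 1347 kb. For the hemidesmosome components Plec (plectin), Col17a1 (collagen XVII) and Dst (which encodes BP230) the distances were 161, 246 and 406 kb. The last 4 genes, the hyaluronan receptor Cd44, the tetraspanin Cd9 and the epithelial splicing regulators Esrp1 and Esrp2, had no peak within 100 kb and lay between 364 and 3414 kb from one. For these 4 genes the background share would give 0.804 within 100 kb.

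Many peaks counted within 100 kb lay at other genes. The 17 genes had 20 distinct peaks. Of these, 3 lay at a gene of the group and at no other protein-coding gene (Krt14, Itgb1 and Tjp1), 9 lay inside or within 1 kb of another protein-coding gene, and 8 lay at none. Among all 1447 placed peaks, 982 (67.9%) lay inside or within 1 kb of a protein-coding gene. Krt14, Itgb1, Tjp1, Pkp4, Nectin1 and Itga6 were the protein-coding genes nearest to a peak within 100 kb, 6 of 48 or 12.5%, against 5.64% of protein-coding genes. With noncoding genes taken into account the number was 3, and the matching share over all genes was not computed. Leaving out every peak that lay at another protein-coding gene kept 8 of the 17 genes (16.7% of 48), those 6 with Pkp3 and Dsg3, against 7.86% of protein-coding genes treated in the same way. Within 10 kb it kept Krt14, Itgb1 and Tjp1, against 4.41%. This treatment was chosen after seeing the data.

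Allowing for shared peaks moved the shares within 10 and 100 kb little and the median distance more. When genes within 200 kb of each other were joined, the 48 genes formed 40 loci, 5 of them with more than 1 gene. Of these loci, 4 (10%) had a peak within 10 kb and 14 (35.0%) within 100 kb. All protein-coding genes were not joined in this way, so the locus shares have no background and differ in unit from the gene shares. Without Krt15, Krt17 and Krt19 the count within 100 kb was 14 of 45 genes (31.1%). The median distance to the nearest peak was 286 kb over the 40 loci and 278 kb over those 45 genes, against 205 kb over the 48 genes. The number of genes around each member was also recorded, since it differs between gene groups: the median was 5.50 other protein-coding genes within 100 kb for the 48 genes, 6 for the 17 with a peak within 100 kb, 5 for the 31 without and 4 for all protein-coding genes. Among members with 7 or more such neighbours, 8 of 19 had a peak within 100 kb, where 27.0% of protein-coding genes with as many neighbours did. With 4 to 6 neighbours it was 1 of 7 (background 19.9%), with 2 or 3 it was 3 of 14 (15.8%), and with 0 or 1 it was 5 of 8 (13.1%). The share of members was below the background in the class of 4 to 6 neighbours and above it in the others. Each class held few members. Krt14, Krt15, Krt17 and Krt19, which share 1 peak, are all in the class with 7 or more neighbours. The median length was 34.1 kb for the 48 genes and 17.4 kb for all protein-coding genes. Of protein-coding genes at least as long as the median member, 9.48% met the 10 kb rule and 20.7% the 100 kb rule. Among all protein-coding genes these shares were 6.48% and 20.1%. The part of gene length and neighbour number in the counts was not tested.

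The peaks of the group were described by their width and list number, neither of which the choice of genes used. The 20 peaks within 100 kb had a median width of 436 bp, with a range of 199 to 2039 bp, and the median over all 1451 peaks was 336 bp. Their median list number was 1034, and 7 of the 20 stood in the first 725 of the list. The 4 peaks within 10 kb had numbers 211, 880, 1175 and 1188. What the order of the list stands for is not stated in the sources used here.

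**Figure D3:**
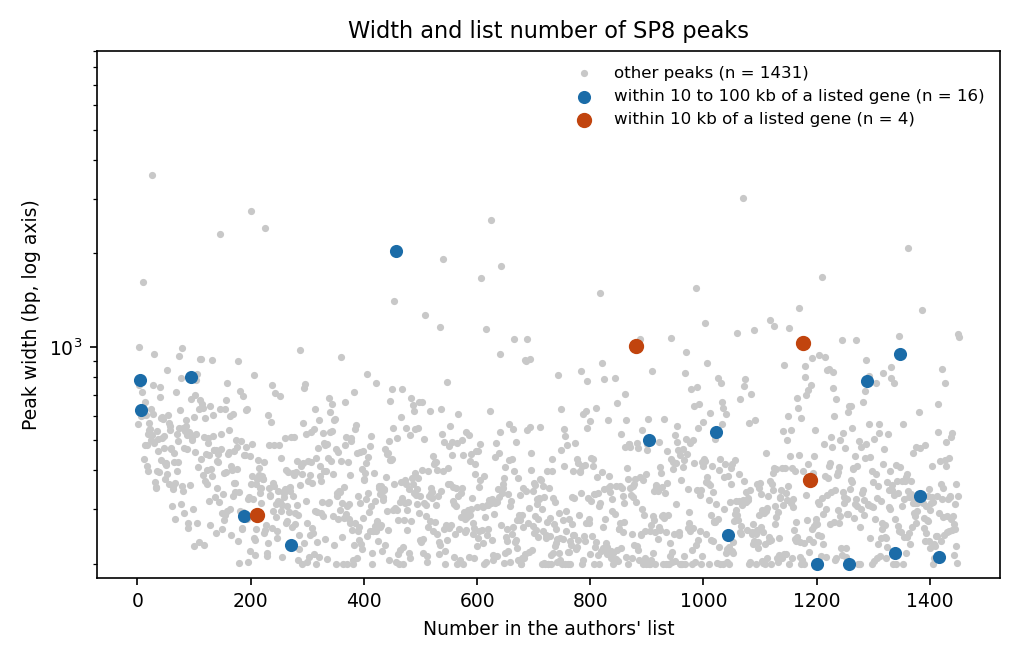
Width in bp (log axis) against the number in the authors' list for all 1451 peaks; orange points are the 4 peaks within 10 kb of an adhesion gene, blue points the 16 others within 100 kb, and grey points all other peaks. The blue points at numbers 5, 6 and 94 are those near Evpl (inside Foxj1), Pkp4 and Nectin1, and the widest blue point, of 2039 bp, lies beyond Dsg2.

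GC and CACC boxes were common in the promoters of the group. The promoter table (250 bases before to 50 after a start) held 34 promoters for 26 of the 48 genes and 32851 promoters in all. Different starts of the same gene were counted separately, and the promoters of Lamb3 overlap each other, as do those of Ocln. A GC box stood in 19 of the 34 (55.9%), against 35.7% of all promoters and 46.7% of those of protein-coding genes. A CACC box stood in 18 (52.9%), against 31.5% of all promoters and 33.8% of those of protein-coding genes. The homeodomain core TAATTA was in 1 of 34 (2.94%, against 5.29% of all and 4.47% of protein-coding promoters), that of Cldn1. The AP-2 core GCCNNNGGC, whose factors are known in surface ectoderm, was in 7 (20.6%), against 16.6% of all promoters and 20.1% of those of protein-coding genes, which is near the share in the group, and the grainyhead core AACCGGTT was in 0, against 0.146% of all promoters and 0.181% of those of protein-coding genes. Both strands were searched, and the AP-2 core can overlap a GC box. The median G and C content was 60% in the 34 promoters and 52.7% in all, those of noncoding genes included. The printed sequences are chosen examples, and box content was not compared between genes with and without a peak. The Dsp sequence printed above had 4 GC boxes and 22 CG dinucleotides with its nearest peak at 278 kb. The Krt14 sequence, which lies before an internal start, had 0 GC boxes and a peak 157 bp away. Epcam had 1 GC box and 1 CACC box in the printed sequence. The printed Krt5 sequence had 0 of each, but with the 50 bases after the start its promoter held 1 CACC box.

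The group was then set beside 3 other gene lists, as counts only. Of 132 other genes of the same families, such as further cadherins, claudins, keratins and integrins, 7 (5.30%) had a peak within 10 kb and 27 (20.5%) within 100 kb, both near the background. The 7 were Ctnna2, Itga9, Itga8, Cldn23, Lamc1, Cgn and Krt222. Lamc1, a laminin chain, had its peak 0.245 kb from the gene, and Cgn, the tight junction protein cingulin, 2.30 kb. Some of the 27 shared their nearest peak with each other or with the adhesion genes, among them keratin genes around the Krt14 peak. This list was not joined into loci. Of 21 transcription factor genes of surface ectoderm, 4 (19%) had a peak within 10 kb and 7 (33.3%) within 100 kb. Those 4 were Trp63, Tfap2a, Grhl3 and Msx2, the first 3 with the peak inside the gene. Of 20 adhesion, matrix and cytoskeleton genes of mesenchyme, 3 (15%) had a peak within 10 kb, inside Itga8, Col5a1 and Itgav, and 4 (20.0%) within 100 kb. The mesenchyme list and the family list share 7 genes. With numbers this small the Wilson intervals within 10 kb overlapped (3.29 to 19.6% for the adhesion genes, 7.67 to 40% for the regulators and 5.24 to 36.0% for the mesenchyme genes), and the differences between lists were not tested.

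**Figure D4:**
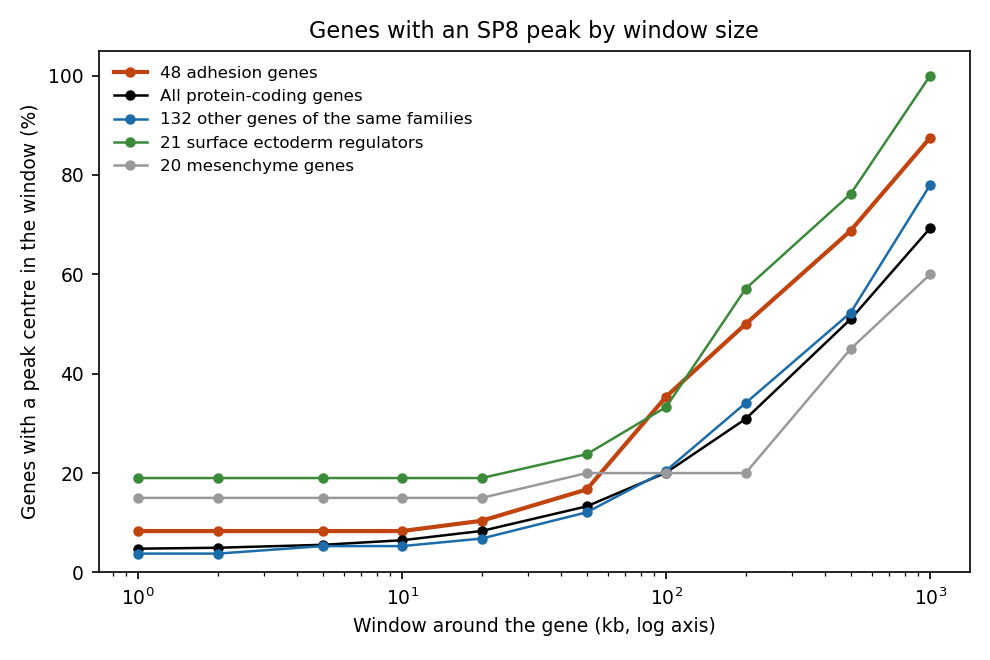
Share of genes in percent with a peak centre inside the gene or within the window on the x axis (1 to 1000 kb, log axis), for the 48 adhesion genes, 3 other lists and all protein-coding genes. The adhesion genes stay at 8.33% from 1 to 10 kb, reach 16.7% at 50 kb and 35.4% at 100 kb, where all protein-coding genes are at 20.1%.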

How the data were processed

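Sonicated chromatin from E10.5 forelimb ectoderm was immunoprecipitated and sequenced, per the labels' protocols, with 18 PCR cycles. The submitters' processing notes name FastQC, SAMtools, TopHat2, deepTools and MACS2 and the builds GRCm38 and mm10, without roles. Which tool called the peaks, against which control, and whether libraries were pooled are not given in the sources used here.

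The deposited list has 4 columns: sequence name, start, end and a number from 1 to 1451, which is its row number and was recorded as a score of unknown meaning. The thresholds in the list's name could not be checked. Peaks are printed as deposited, and whether starts count from 0 or 1 is not stated. Width is end minus start, and the smallest is 199 bp. Of the peaks, 1447 were placed on chromosomes 1 to 19 and X. The 4 on unplaced contigs were left out of all comparisons with genes.

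Gene intervals came from RefSeq GRCm38.p6. Genes starting below 3 Mb or on chromosome Y were left out. Strand and transcript starts came from the promoter table, which lacked 22 of the 48 genes, so for those either boundary was used. Distances ran from gene interval to peak centre, and members with gaps of at most 200 kb were joined into loci. Mean peak density is placed peaks over the length from 3 Mb to the last gene end of each chromosome. Shares carry 95% Wilson intervals for counting error. With 1 list there are no replicates, so no test was made. All 48 members are named: those within 10 kb in full, those within 100 kb with their nearest peak, the others by distance, and of the other lists the genes within 10 kb. The members and lists were chosen with earlier results of these data known. Distance and locus functions were tested on simulated peaks. Python 3.11.15, pandas 2.3.3, numpy 2.4.6, SciPy 1.17.1 and matplotlib 3.10.9 were used.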

Additional observations from a re-analysis of the deposited data

How the results depend on the processing

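Across 15 results, 55 alternatives were computed and 44 stayed within 1.5 times the main value, or within the interval of the median distance. The 15 results include shares over all promoters and over all genes, which do not describe the group. The tally is therefore no measure of how stable the group's own values were. The 4 alternatives that left out peaks at other genes or the keratins sharing the Krt14 peak were chosen after seeing the data. With the first 725 peaks only, whose order has no stated meaning, so that this is a smaller list and not known to be a stricter one, the counts were 1 gene and 1 locus within 10 kb, 9 genes and 6 loci within 100 kb, 7 distinct peaks and a median distance of 567 kb. The background share of protein-coding genes then fell to 3.23% within 10 kb and 10.7% within 100 kb, since fewer peaks were used. A window of 50 kb in place of 100 kb gave 8 genes (16.7%), against 13.3% of protein-coding genes. It also gave 7 loci, for which no background was computed. Counting all genes of the table, 3 members were nearest to a peak, for which no background was computed. The background of the count within 10 kb was then 4.16%. Leaving out peaks at another protein-coding gene gave 8 genes (16.7%) within 100 kb, against 7.86% of protein-coding genes. These settings used fewer peaks, a narrower window or more genes, and what moved the values was not tested. Measuring to gene boundaries alone dropped Tjp1 from the genes within 10 kb, leaving 3 of 48, where 5.40% of protein-coding genes met that rule. No paired analysis was possible because 1 peak list was analysed, and no replicate could be left out. With depth unknown, a gene without a peak cannot be told apart from one bound below the calling threshold.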
